A study of Mus musculus with 18 samples.

Results

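Developmental transcription factors of 13 families were followed in mouse erythroleukaemia cells: Pax, Lhx, sine oculis homeobox (such as Six2, Six4 and Six5), Irx, Tbx, Dlx, Neurog, Neurod, Msx, Pitx, Otx, Nkx and the c, d and f groups of Fox. The members are all genes whose symbol is a family name and a number, a rule that used no measured value. It found 48 genes: 11 Tbx, 7 Nkx, 6 Pax, 5 Lhx, 4 Fox, 4 sine oculis, 3 Dlx, 3 Neurod and 1 each of Irx, Msx, Neurog, Otx and Pitx. The table of experiment 1 held 38 of them among 25628 genes, the table of experiment 2 held 43 among 26903, and 33 were in both.

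RNA was sequenced from leukaemic erythroid blasts of line #763, which carry the TgSpi1 transgene that overexpresses SPI1 (PU.1) and a doxycycline-inducible short hairpin RNA against Spi1. All 6 groups were this 1 line, were grown with erythropoietin (EPO) and had 3 libraries each, described as biological replicates. The labels name no group with a control hairpin, so doxycycline itself and the loss of Spi1 cannot be told apart. Experiment 1 compared cells without doxycycline (called untreated here) and cells after 48 h of doxycycline. Experiment 2 crossed 48 h of doxycycline or none with 6 h of 3 μM entinostat, an inhibitor of the histone deacetylases HDAC1 and HDAC3, or its solvent DMSO. Its groups are called DMSO, doxycycline plus DMSO, entinostat, and doxycycline plus entinostat.

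Transcription factors of these families place organs and cell types along the axes of the embryo. Pax6 is a master regulator of the eye, Six2 keeps kidney progenitors, Neurog2 starts neuron formation and Foxc1 acts in mesoderm and the bone marrow niche. In blood cells most of these genes are silent, commonly under Polycomb repression at CpG-rich promoters. SPI1, a master factor of myeloid and B cells, blocks red cell maturation when overexpressed, and histone deacetylases remove the acetyl marks that go with open chromatin.

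Total counts per library ranged from 82.7 to 114 M (experiment 1) and from 43.1 to 48.9 M (experiment 2). Spi1, the gene targeted by the hairpin, checked the labels. It stood at 379, 455 and 459 CPM (read counts scaled to library size) in the untreated libraries of experiment 1 and at 133, 125 and 132 CPM with doxycycline. It was 200, 259 and 251 CPM in DMSO and 59.5, 126 and 105 CPM in doxycycline plus DMSO. It was 221, 480 and 482 CPM in entinostat and 98.5, 162 and 132 CPM in doxycycline plus entinostat. Spi1 was lower with doxycycline in each setting with no overlap between groups. The first library of doxycycline plus DMSO and the first of entinostat stood apart from their groups: their root mean square log2 distance to the mean of the other libraries of the group was 0.618 and 0.643, against 0.186 to 0.367 in the rest of experiment 2. Without both, the 6 members called for doxycycline in DMSO, the 16 called for entinostat without doxycycline and the 18 with it, all described below, kept their calls, while doxycycline in entinostat went from 4 to 10 calls and the interaction from 0 to 10. Over all genes, calls went from 3614 to 9569 and from 41 to 7972, or 61.8% and 51.5% of those tested without both libraries. The labelled erythroid identity was checked with 10 erythroid genes, all present and summing to 3115 to 6887 CPM.

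Few of the developmental factors were expressed to any extent. In DMSO, 14 of the 43 listed members reached 0.1 CPM in all 3 libraries and 7 reached 1 CPM; in untreated cells of experiment 1 they were 14 and 8 of 38. The numbers were 15 and 10 with doxycycline in experiment 1, 15 and 9 in doxycycline plus DMSO, 23 and 14 in entinostat, and 22 and 14 in doxycycline plus entinostat. Six2 was the highest member per kb of exon in both, at 24.2 ± 3.65 CPM per kb (SD, n = 3) in DMSO and 50.5 ± 3.19 in untreated cells. Pax6 followed in DMSO at 7.74 ± 0.197 CPM per kb, then Irx5, which patterns heart and retina, at 2.93 ± 0.217, and Tbx15, a factor of the limb and skeleton, at 2.87 ± 0.181. Irx5 and Tbx15 did not differ in DMSO beyond their spread. In experiment 1 Irx5, at 6.09 ± 0.491 CPM per kb, stood above Pax6 at 5.21 ± 0.273. The experiments were counted into separate tables, so a level is compared only within each.

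**Figure D1:**
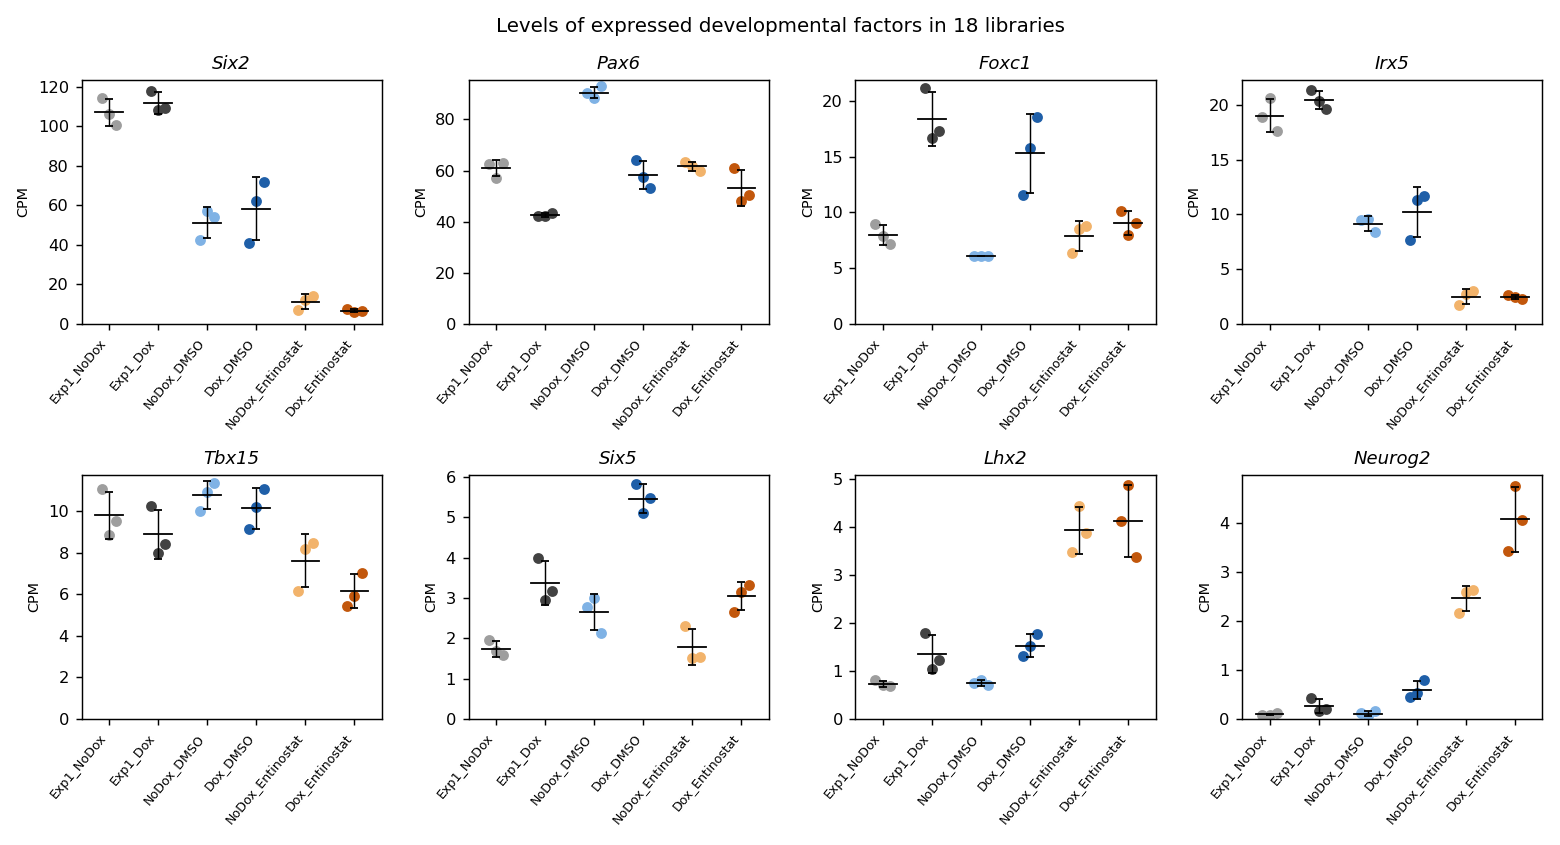
CPM (vertical axis, linear, from 0) of 8 developmental factors in the 6 groups of 18 libraries; points are libraries, horizontal lines are means and bars are SD over 3 libraries. Six2 fell from 51.3 CPM in DMSO to 11.1 CPM in entinostat, and Foxc1 was higher with doxycycline in experiment 1 and in DMSO.

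For 6 members named below, the DNA before their start is shown. By the CpG-rich cutoffs of the next paragraph, Foxc1, Pax6, Six2 and Lhx2 were CpG-rich. Six5 and Nkx2-3, each with an observed-to-expected CpG ratio of 0.559, were not. Tbx4 and Neurog2 were called in more comparisons than Six2 or Nkx2-3 but are not shown. Their ratios were 0.314 and 0.570, so they were not CpG-rich either. Each window runs from 250 to 51 bases before the RefSeq start (build GRCm38.p6), 5′ to 3′ on the gene's strand, with each CpG in capitals. Foxc1 is at chr13:31806396-31806595 (plus strand) with 26 CpG, Six5 at chr7:19094294-19094493 (plus) with 12, Pax6 at chr2:105668646-105668845 (plus) with 12, Six2 at chr17:85688305-85688504 (minus) with 24, Lhx2 at chr2:38339031-38339230 (plus) with 16, and Nkx2-3 at chr19:43612075-43612274 (plus) with 12. No annotated exon of GENCODE release M21 lies in these windows.
Foxc1: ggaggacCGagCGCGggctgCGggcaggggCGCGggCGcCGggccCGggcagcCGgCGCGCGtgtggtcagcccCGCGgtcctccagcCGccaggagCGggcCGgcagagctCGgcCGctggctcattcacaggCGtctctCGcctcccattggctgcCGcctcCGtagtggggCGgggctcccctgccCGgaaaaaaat
Six5: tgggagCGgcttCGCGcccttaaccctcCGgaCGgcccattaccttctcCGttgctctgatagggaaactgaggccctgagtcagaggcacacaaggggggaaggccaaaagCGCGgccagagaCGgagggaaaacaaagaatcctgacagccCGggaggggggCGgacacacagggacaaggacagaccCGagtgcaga
Pax6: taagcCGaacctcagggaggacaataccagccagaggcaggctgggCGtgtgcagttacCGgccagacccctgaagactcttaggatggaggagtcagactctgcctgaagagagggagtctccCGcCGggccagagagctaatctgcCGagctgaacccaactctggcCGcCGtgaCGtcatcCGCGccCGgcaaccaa
Six2: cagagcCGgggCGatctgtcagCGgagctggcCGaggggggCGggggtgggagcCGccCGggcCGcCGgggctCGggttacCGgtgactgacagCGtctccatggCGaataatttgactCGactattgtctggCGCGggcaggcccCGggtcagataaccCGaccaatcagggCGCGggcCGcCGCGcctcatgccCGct
Lhx2: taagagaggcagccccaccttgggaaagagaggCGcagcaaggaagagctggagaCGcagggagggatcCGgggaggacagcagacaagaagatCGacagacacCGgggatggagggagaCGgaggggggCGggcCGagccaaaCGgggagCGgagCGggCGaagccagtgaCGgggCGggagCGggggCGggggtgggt
Nkx2-3: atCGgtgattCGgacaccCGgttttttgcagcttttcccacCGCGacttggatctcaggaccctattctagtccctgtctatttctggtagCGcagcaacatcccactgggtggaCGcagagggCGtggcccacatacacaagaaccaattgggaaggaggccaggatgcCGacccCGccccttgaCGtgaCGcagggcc

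RefSeq promoter windows of 300 bases matched 37 of the 48 members. Their median CpG count was 16, with a range of 1 to 37. By a GC content over 50% and an observed-to-expected CpG ratio over 0.6, 18 of the 37 (48.6%) were CpG-rich, against 33.9% of 27025 genes with a window and 66.7% of the genes tested in experiment 2. The letters GAGGAAGT, a sequence that SPI1 is known to bind, were on neither strand in any of the 37 windows, against 3.28% of all windows, which says only that these letters are not in these 300 bases.

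In experiment 1, doxycycline raised Foxc1 and Six5 and lowered Pax6 and Tbx4, a hindlimb and lung factor. These were 2 higher and 2 lower of 16 members tested, where 5.26% of all 13811 tested genes were called higher and 8.36% lower. The median log2 fold change of the 16 was 0.16, against 0.02 over all tested genes. A call here is an adjusted p under 0.05 in edgeR's quasi-likelihood test, adjusted over all genes. Of the 22 listed members not tested, 21 had under 10 counts in every library.

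Foxc1 stood at 8.97, 7.84 and 7.16 CPM in untreated cells and at 21.2, 16.7 and 17.3 CPM with doxycycline. All doxycycline libraries lay above all untreated ones, a log2 difference of 1.20 ± 0.14 (SE; adjusted p = 0.00355). In experiment 2, Foxc1 was 6.04, 6.08 and 6.11 CPM in DMSO and 11.5, 15.8 and 18.6 CPM in doxycycline plus DMSO. The groups again did not overlap, with a log2 difference of 1.33 ± 0.20 (adjusted p = 0.000907).

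Six5, a member of the sine oculis family that lies beside the myotonic dystrophy kinase gene, was 1.95, 1.69 and 1.58 CPM in untreated cells and 3.99, 2.95 and 3.16 CPM with doxycycline. That is 1.94-fold higher (log2 0.95 ± 0.17, adjusted p = 0.0144). In DMSO it was 2.79, 3.00 and 2.14 CPM, and in doxycycline plus DMSO 5.82, 5.10 and 5.47 CPM. Six5 was 2.07-fold higher there, with no overlap of groups (log2 1.05 ± 0.23, adjusted p = 0.00994).

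Pax6 moved the other way. Its libraries read 62.5, 57.2 and 62.9 CPM untreated against 42.0, 42.0 and 43.5 CPM with doxycycline, and 90.2, 88.4 and 93.0 CPM in DMSO against 64.1, 57.4 and 53.2 CPM in doxycycline plus DMSO. Every doxycycline library lay below every library without it in both experiments. The log2 differences were -0.52 ± 0.08 (adjusted p = 0.00834) and -0.64 ± 0.14 (adjusted p = 0.012).

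Tbx4 was low throughout. It was 0.359, 0.260 and 0.304 CPM untreated and 0.114, 0.0611 and 0.0687 CPM with doxycycline, a log2 difference of -1.89 ± 0.30 (adjusted p = 0.0105). The counts were 30, 29 and 27 untreated and 11, 6 and 6 with doxycycline. Tbx4 thus passed the filter on low counts of experiment 1 through the untreated group, where it is high, and was not tested under a 1 CPM filter. In experiment 2 it had 59 counts over the 3 DMSO libraries and 4 over the 3 of doxycycline plus DMSO, all 4 in the first of these. The log2 difference was -3.72 ± 0.75 (adjusted p = 0.00594), and -7.36 without that first library, where no count was left. The groups did not overlap in either experiment.

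In DMSO, doxycycline also raised Neurog2, and Lhx2, a LIM homeodomain factor of forebrain and eye. This made 4 higher and 2 lower of 23 members tested, beside 3.77% and 5.53% of 15051 genes, and a median of 0.36 against 0.05 over all tested genes. Leaving out 4 tested members at or under 3 counts in both groups, the median was 0.44. Neurog2 was 0.112, 0.0652 and 0.153 CPM in DMSO and 0.442, 0.540 and 0.797 CPM in doxycycline plus DMSO. The groups were apart, with a log2 difference of 2.41 ± 0.37 (adjusted p = 0.000981). Lhx2 was 0.742, 0.804 and 0.698 CPM in DMSO and 1.30, 1.51 and 1.77 CPM in doxycycline plus DMSO, a 2.04-fold difference without overlap (adjusted p = 0.0145).

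The experiments do not share libraries. Both members that rose in experiment 1, Foxc1 and Six5, were among the 4 that rose in DMSO (100% of the former and 50% of the latter), and Pax6 and Tbx4 were the members that fell in each (100% of both). The matching share over all tested genes is not given here, so whether these members differ from it is not known. Same-numbered libraries of experiment 1 deviated together, and a fit blocked on replicate number called 7 members higher and the same 2 lower, where 26.1% and 24.7% of all tested genes were called in that fit. The 5 added were Neurog2 (log2 1.40, adjusted p = 0.0101), Dlx2 (1.29, 0.00952), Six4 (0.89, 0.00368), Lhx2 (0.87, 0.00122) and Dlx1 (0.58, 0.0134). All 5 missed the threshold without the block, with adjusted p-values of 0.0559 to 0.158. In experiment 1, Neurog2 and Dlx2 reached 0.1 CPM in all 3 libraries only with doxycycline. Both passed the filter on low counts with the help of the doxycycline libraries, which favours a rise.

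Of the called members, Foxc1 passed in every alternative run for both experiments, and Neurog2 in every one run for DMSO. In experiment 1, Pax6, Six5 and Tbx4 missed the threshold without the third untreated library, with adjusted p-values up to 0.0617, 0.0801 and 0.056, as did Six5 and Tbx4 without the third doxycycline library. In DMSO, Pax6 missed it without the third DMSO library, the second or the third of doxycycline plus DMSO, or the filter on low counts (adjusted p up to 0.0734). There, Lhx2 missed it without the first or the third DMSO library or the third of doxycycline plus DMSO (up to 0.0735), and Six5 without the third DMSO library (0.0651). Their log2 differences stayed between -0.71 and -0.58 for Pax6, 0.91 and 1.13 for Lhx2, and 0.92 and 1.15 for Six5.

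**Figure D2:**
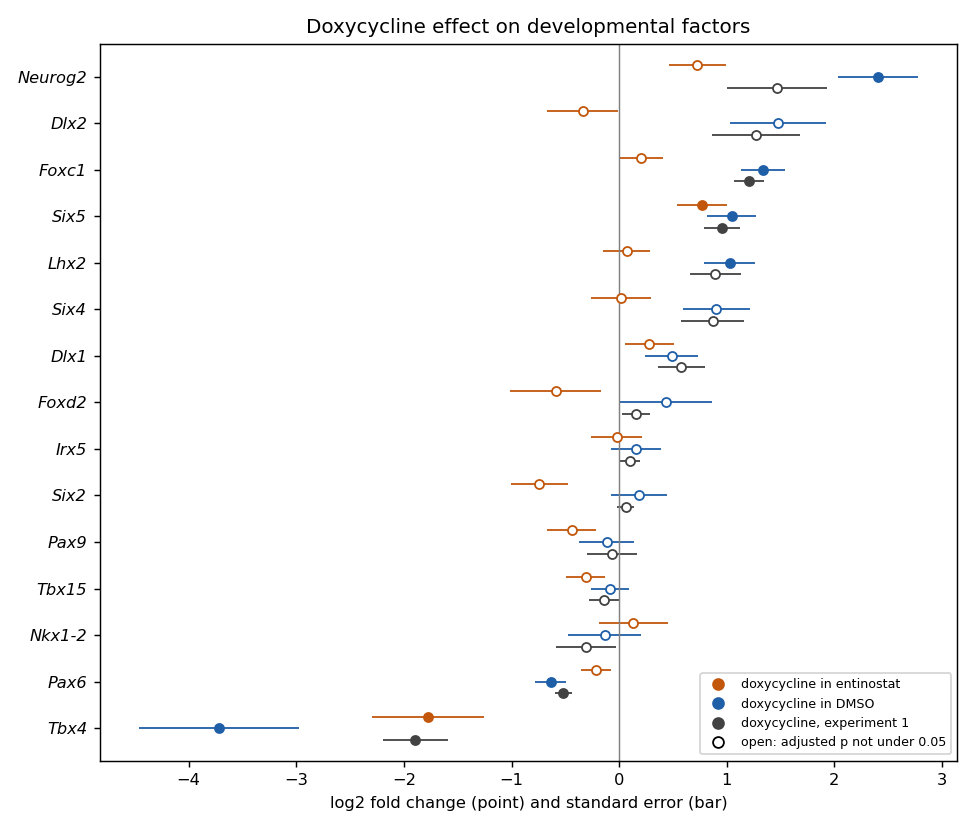
Log2 fold change with doxycycline (horizontal axis; points with SE bars) of 15 members tested in experiment 1, in DMSO and in entinostat; filled points have an adjusted p under 0.05. Foxc1 and Six5 lie right of 0 and Pax6 and Tbx4 left of 0 as filled points in experiment 1 and in DMSO.

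The erythroid list moved with doxycycline as well. Its sum was 3850 to 4560 CPM untreated and 5834 to 6887 CPM with doxycycline, with 5 of 10 genes called higher and none lower in edgeR (5 at an unadjusted p under 0.05), and 6 of 10 higher in DMSO. Over all tested genes, 5.26% and 3.77% were called higher in these comparisons. Of 9 neural markers, 3 were listed; their sum was 1.26 to 1.65 CPM untreated and 3.44 to 4.02 CPM with doxycycline, and 1 of 2 tested, Gfap, was called higher. The 6 myeloid markers summed to 2.67 to 3.51 CPM untreated and 1.27 to 1.43 CPM with doxycycline, and to 3.27 to 3.73 CPM in DMSO and 1.77 to 2.68 CPM in doxycycline plus DMSO. Cd68 was called lower in experiment 1 and Lyz2 in DMSO. Itgam and Elane were at the table minimum in all 3 libraries of DMSO, of doxycycline plus DMSO and of doxycycline in experiment 1, and only the third untreated library was above it. The part of these lists in the results was not tested. In bulk RNA, fewer cells of a type and less RNA per cell cannot be told apart.

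Entinostat moved the set in both directions within 6 h. Without doxycycline, 12 of 23 tested members rose and 4 fell, beside 30.3% and 16.9% of all tested genes. With doxycycline 13 rose and 5 fell, beside 33.9% and 29.9%. Of the 23, 7 had under 10 counts in all 6 DMSO libraries and passed the filter through entinostat alone, so a rise of these was built into the filter. They were Lhx9, Neurod4, Nkx2-3, Pax3, Tbx19, Tbx2 and Tbx6, and gave 6 of the rises in each comparison. Of the other 16, 6 rose and 4 fell without doxycycline, where 23.4% and 18.9% of the tested genes with at least 10 counts in a DMSO library did. With doxycycline 7 of the 16 rose and 5 fell, beside 27.0% and 33.4%. The median log2 fold changes of the 16 were 0.48 and 0.21, against -0.04 in each comparison over those genes. Of the 43 listed members, 14 had 0 counts in all 6 DMSO libraries and could not fall. Among the other 29, tested or not, the mean level was higher with entinostat in 22 and lower in 6 without doxycycline, and higher in 18 and lower in 11 with it. The members' shares also followed level. Of 14 tested members with a mean of at least 1 CPM over the 12 libraries, 7 rose and 4 fell without doxycycline, where 22.9% and 21.4% of genes at that level did; of 9 under 1 CPM, 5 rose and none fell, where 53.8% and 2.37% did. With doxycycline 7 of the 14 rose and 5 fell, beside 25.8% and 38.1%, and 6 of the 9 rose and none fell, beside 59.7% and 3.52%.

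The 4 members highest per kb in DMSO, Six2, Pax6, Irx5 and Tbx15, fell with entinostat in cells without doxycycline. Six2 was 42.5, 57.0 and 54.3 CPM in DMSO and 6.98, 12.2 and 14.2 CPM in entinostat. With doxycycline it was 40.7, 62.1 and 71.9 CPM in DMSO and 7.54, 5.80 and 6.63 CPM in entinostat. No entinostat library reached the lowest DMSO library, and Six2 was 4.61-fold lower without doxycycline (log2 -2.20 ± 0.27, adjusted p = 4.06e-05) and 8.75-fold lower with it (-3.13 ± 0.28, adjusted p = 3.46e-06). The summed level of the listed members was also lower: it was 168 to 184 CPM in DMSO, 113 to 135 CPM in entinostat, 149 to 184 CPM in doxycycline plus DMSO and 105 to 116 CPM in doxycycline plus entinostat. Without doxycycline this sum rests largely on Six2 and Pax6, with means of 51.3 and 90.6 CPM in DMSO. In entinostat these means were 11.1 and 61.7 CPM. More listed members had a higher than a lower mean with entinostat, as given above.

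Irx5 was 9.53, 9.58 and 8.38 CPM in DMSO and 1.70, 2.74 and 2.96 CPM in entinostat. In the presence of doxycycline Irx5 was 7.61, 11.3 and 11.7 CPM with DMSO and 2.62, 2.46 and 2.22 CPM with entinostat. The groups were apart in both, with log2 differences of -1.89 ± 0.24 and -2.07 ± 0.24 (adjusted p = 4.94e-05 and 2.1e-05). Tbx15 fell less, by 0.50 ± 0.18 on the log2 scale without doxycycline (adjusted p = 0.0357) and by 0.72 ± 0.18 with it (adjusted p = 0.00382). The first of these Tbx15 calls was lost in 9 of 21 alternatives, among them library-size scaling and the omission of any of the 3 DMSO libraries or of the first or the second entinostat library (adjusted p up to 0.368 over all alternatives).

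Pax6 fell to 63.5, 61.8 and 59.8 CPM in entinostat without doxycycline, below the 88.4 CPM of its lowest DMSO library (log2 -0.55 ± 0.14, adjusted p = 0.00628). With library size alone as the scale, which moved the median of all genes from 0.07 to 0.32, the Pax6 difference was -0.30 (adjusted p = 0.102). With doxycycline, Pax6 was 61.2, 47.9 and 50.5 CPM in entinostat, overlapping the DMSO libraries (log2 -0.13 ± 0.14, adjusted p = 0.432). Foxc1 was 6.32, 8.50 and 8.76 CPM in entinostat and 10.1, 8.0 and 9.09 CPM in doxycycline plus entinostat. Six5 was 2.31, 1.52 and 1.54 CPM and 2.66, 3.14 and 3.32 CPM in these groups, which stayed apart for Six5 and overlapped for Foxc1. Foxc1 and Six5 fell with entinostat where doxycycline was present, by 0.76 ± 0.20 and 0.84 ± 0.23 on the log2 scale (adjusted p = 0.0057 and 0.00586). Without doxycycline, their differences were 0.37 ± 0.20 and -0.56 ± 0.23 (adjusted p = 0.154 and 0.0611). These comparisons share the doxycycline plus DMSO libraries with the doxycycline effect above.

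**Figure D3:**
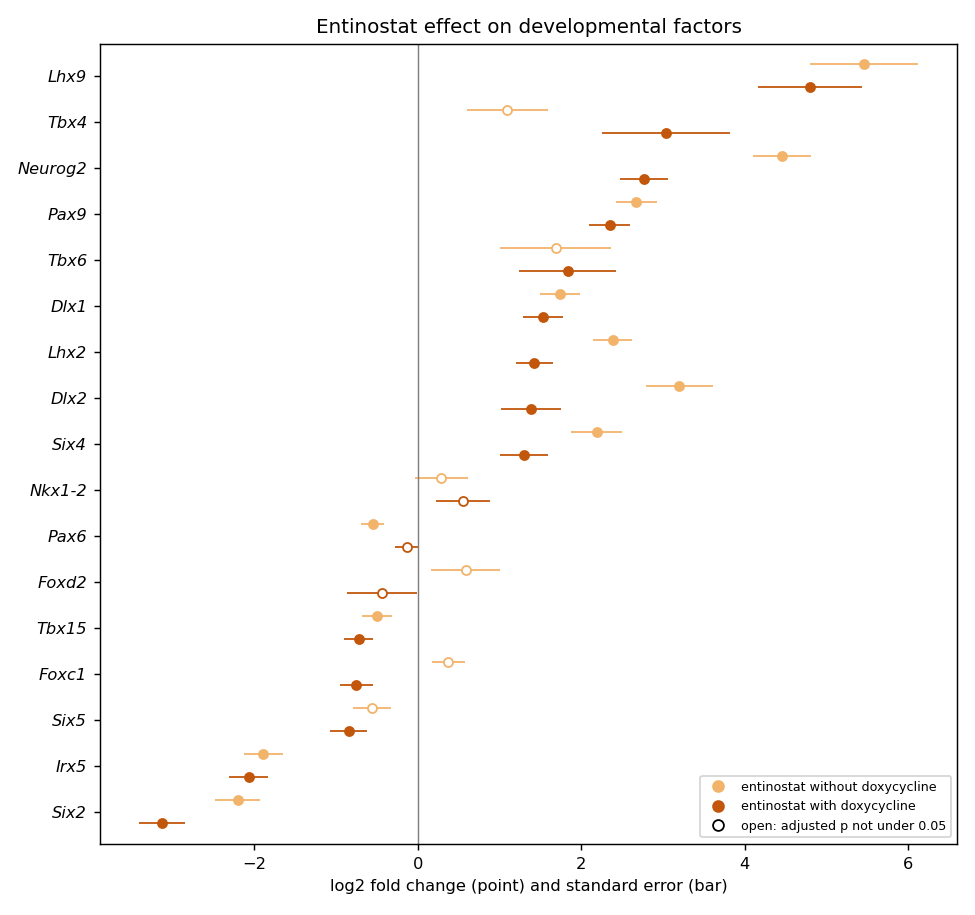
Log2 fold change with entinostat (horizontal axis; points with SE bars) of 17 members with and without doxycycline; filled points have an adjusted p under 0.05, and the 5 members with 3 or fewer counts in a DMSO group are among those left out. Six2 and Irx5 lie farthest to the left and Lhx9 farthest to the right in both.

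Members that were measurable in DMSO and rose with entinostat in both settings were Pax9, Neurog2, Lhx2, Dlx1, Dlx2 and Six4. Pax9, a factor of teeth and palate, was 1.08, 0.977 and 0.851 CPM in DMSO and 4.37, 7.18 and 7.06 CPM in entinostat. With doxycycline it was 0.737, 0.972 and 0.969 CPM in DMSO and 4.48, 4.34 and 4.89 CPM in entinostat. The groups were apart in both, at 6.39-fold and 5.10-fold (adjusted p = 5.27e-06 and 1.06e-05). Slc25a21, a mitochondrial carrier gene, has exons on the strand opposite to Pax9 and is more abundant, and the library kit does not keep strand. Its level was 47.1 ± 2.20 CPM in DMSO and 39.7 ± 7.14 CPM in entinostat, with no call (log2 -0.25 ± 0.20, adjusted p = 0.348).

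Neurog2 reached 2.16, 2.59 and 2.63 CPM in entinostat and 3.42, 4.75 and 4.07 CPM in doxycycline plus entinostat, all above every DMSO library. Its log2 rise was 4.45 ± 0.36 without doxycycline (adjusted p = 1.81e-06) and 2.77 ± 0.29 with it (adjusted p = 1.08e-05). Lhx2 reached 3.47, 4.42 and 3.87 CPM in entinostat and 4.12, 4.87 and 3.37 CPM in doxycycline plus entinostat. Its rise was 2.39 ± 0.24 and 1.43 ± 0.23 on the log2 scale (adjusted p = 8.48e-06 and 0.000178). For both genes the groups did not overlap.

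Dlx1 and Dlx2, homeodomain factors of forebrain interneurons, lie 9427 bases apart on chromosome 2 and both rose in both entinostat comparisons. Dlx2 rose by 3.20 ± 0.41 without doxycycline and by 1.38 ± 0.36 with it on the log2 scale. Dlx1 rose by 1.74 ± 0.24 and 1.53 ± 0.24. The antisense gene Dlx1as overlaps exons of Dlx1 and also rose, by 2.53 ± 0.54 without doxycycline (adjusted p = 0.00204). Without strand, reads of the overlap cannot be assigned to either gene.

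The sine oculis genes differed among themselves. Six4 rose in entinostat by 2.19 ± 0.31 without doxycycline and by 1.30 ± 0.29 with it (adjusted p = 0.000106 and 0.00206). Six4 thus rose and Six2 fell in both, and Six5 was called lower with doxycycline.

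A further group, whose rise was built into the filter as described above, went from almost no reads to a few. Lhx9, a LIM factor of gonad and limb, had 8 counts over the 3 DMSO libraries and 429 over those of entinostat, where it was 1.43, 2.85 and 3.80 CPM. With doxycycline it had 11 and 316 counts. Its log2 differences were 5.46 ± 0.66 and 4.80 ± 0.64 (adjusted p = 3.58e-05 and 5.13e-05), the former 6.23 without the third DMSO library. Nkx2-3, a factor of spleen and gut mesoderm, was 0, 0.174 and 0.0655 CPM in DMSO and 2.31, 2.78 and 3.28 CPM in entinostat. Its log2 difference was 5.07 ± 0.58 (adjusted p = 2.3e-05), and 6.28 without the second DMSO library. With doxycycline it had 2 counts in DMSO and 230 in entinostat, a ratio of 114 with a 95% exact counting interval of 31.3 to 951.

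Pax3, a factor of neural crest and muscle progenitors, had 0 counts in all 6 DMSO libraries. It had 91 counts in entinostat, at least 26.5-fold higher against a floor of 3 counts over the group, and 25 in doxycycline plus entinostat, at least 8.29-fold higher. Tbx19, a pituitary factor, had 3 counts in DMSO and a ratio of 40.4 in entinostat (interval 13.5 to 198). Neurod4, a neuronal factor, had a ratio of 37.1 (9.95 to 311) without doxycycline and was at least 9.62-fold higher with it. Tbx2, which lies 44474 bases from Tbx4 on chromosome 11, had a ratio of 55.0 from 1 DMSO count (9.51 to 2205) and of 14.3 with doxycycline (4.57 to 71.9). These intervals cover counting error only. All of these were called in edgeR except Tbx19 with doxycycline (adjusted p = 0.0612). They passed the filter through entinostat alone, so a rise was built into it and the calls add no support.

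**Figure D4:**
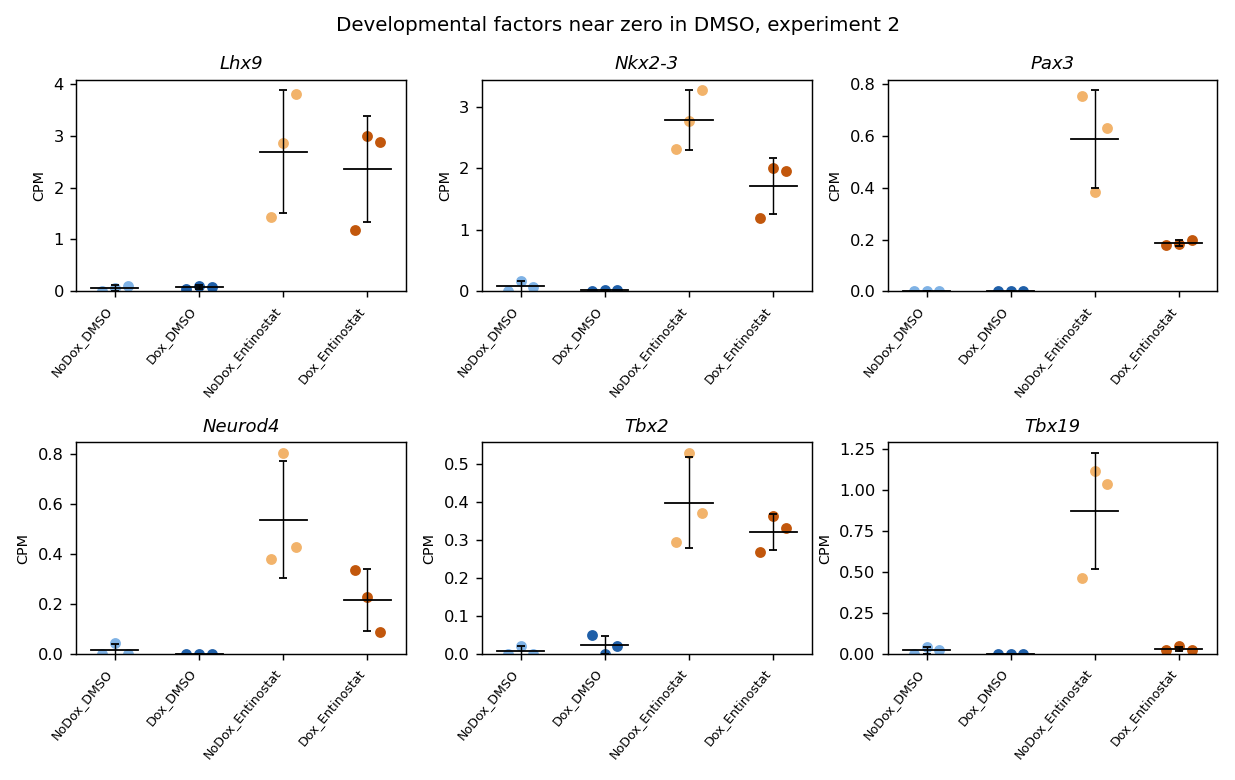
CPM (vertical axis, linear, from 0) of 6 members with few or no reads in DMSO, in the 4 groups of experiment 2; points are libraries, lines are means and bars are SD over 3 libraries. Pax3 reads 0 in all DMSO libraries, and Tbx19 is above 0.4 CPM only in entinostat without doxycycline.

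Tbx4 and Tbx6, a mesoderm factor, rose with entinostat in the presence of doxycycline (log2 3.03 ± 0.78 and 1.83 ± 0.60, adjusted p = 0.00456 and 0.0167). The Tbx4 value was 6.67 without the first library of doxycycline plus DMSO, which held all of its counts in that group. Without doxycycline they were 1.09 ± 0.50 and 1.69 ± 0.68 (adjusted p = 0.0877 and 0.0563), and the difference between the settings did not pass the test (adjusted p = 0.321 and 0.95). The Tbx6 call was lost without the second library of doxycycline plus DMSO or the third of doxycycline plus entinostat (adjusted p up to 0.0722). Tbx6 also had under 10 counts in all 6 DMSO libraries, so its rise was built into the filter. Tbx21, the T-bet factor of T cells, was not tested, with at most 27 counts in a library. It had 0 counts in DMSO and 53 in entinostat, at least 15.4-fold higher. Of the 20 listed members not tested in experiment 2, 18 had under 10 counts in every library. Foxd2 and Nkx1-2 were tested and not called in any of the 6 comparisons as fitted on all libraries.

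Within entinostat, doxycycline lowered Tbx19, Pax3 and Tbx4 and raised Six5. This is 1 higher and 3 lower of 23, beside 8.96% and 15.1% of all tested genes, with a median of -0.31 against -0.08. Tbx19 and Pax3 had under 10 counts in every library outside entinostat without doxycycline. They passed the filter through that group, so a fall of these was built into the filter, and the median includes them. Tbx19 was 0.462, 1.11 and 1.04 CPM in entinostat and 0.0224, 0.0455 and 0.0220 CPM in doxycycline plus entinostat, far apart (log2 -4.75 ± 0.65, adjusted p = 0.00119). Pax3 was 0.756, 0.384 and 0.630 CPM and then 0.179, 0.182 and 0.198 CPM, also without overlap (-1.64 ± 0.44, adjusted p = 0.0298). Tbx4 fell by 1.78 ± 0.52 on the log2 scale and Six5 rose by 0.77 ± 0.23 (adjusted p = 0.0301 and 0.033). Tbx19 passed in every alternative that tested it. Pax3 and Tbx4 were lost on leaving out any of the 3 doxycycline plus entinostat libraries or the second or the third of entinostat (adjusted p up to 0.117 and 0.12). Without the first library of entinostat and the first of doxycycline plus DMSO, 2 of 24 tested members were called higher and 8 lower, where 26.1% and 35.7% of all tested genes were. Neurog2 was added among the higher, and Neurod4, Pax9, Six2, Tbx15 and Tbx21 among the lower. Tbx21 also had under 10 counts in every library outside entinostat without doxycycline. Six5 was lost on leaving out the second or the third of either group, with no filter, or with these groups fitted alone (up to 0.148).

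The interaction, which subtracts the doxycycline effect in DMSO from that in entinostat, called 0 of 23 members in edgeR, with 5 at an unadjusted p under 0.05, beside 0.166% of all tested genes called higher and 0.106% lower. limma-voom called 0 and DESeq2 called 1, Foxc1, lower. The Foxc1 effect was 1.33 in DMSO and 0.21 ± 0.20 in entinostat, an interaction of -1.13 ± 0.29 (adjusted p = 0.188). Neurog2 read -1.68 ± 0.46 (adjusted p = 0.231) and Dlx2 -1.82 ± 0.56 (adjusted p = 0.27). Without the first library of doxycycline plus DMSO, 4 of 24 members were called lower and 1 higher, where 10.4% and 6.52% of all tested genes were. Without the first of entinostat, 5 of 24 were called lower and none higher, beside 13.7% and 5.98%. Without both, 8 of 24 were called lower (among them Dlx2, Foxc1, Foxd2, Irx5, Lhx2, Neurog2 and Six2) and 2 higher (Pax6 and Tbx4), beside 30% and 21.5% of all tested genes.

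Genes of other cell types moved with entinostat too. The 6 myeloid markers summed to 3.27 to 3.73 CPM in DMSO and 12.2 to 16.2 CPM in entinostat, with Lyz2, Cd68 and Csf1r called higher of 4 tested. The stromal and endothelial list, 9 of 12 genes listed, summed to 0.382 to 0.436 CPM in DMSO and 3.95 to 5.14 CPM in entinostat, with 5 of 5 tested called higher and Col1a2 at 0 in both groups. The 3 listed neural markers summed to 1.19 to 2.11 CPM in DMSO and 21.9 to 50.1 CPM in entinostat, with Tubb3 and Gfap higher. B cell, T and NK cell and epithelial lists had 2 of 2, 2 of 2 and 1 of 1 tested genes higher. Of all tested genes 30.3% were called higher and 16.9% lower. Among those with under 10 counts in all 6 DMSO libraries, 87.6% were called higher, as the filter favours. Pdgfra of the stromal and endothelial list had 0 counts in all 6, so its rise was built into the filter. How many other genes of these lists passed through entinostat alone is not given here. Of the 10 erythroid genes 3 rose and 4 fell, among them Gata1 and Klf1, with sums of 3505 to 3809 CPM in DMSO and 3115 to 3477 CPM in entinostat. With doxycycline plus entinostat the myeloid sum was 2.51 to 4.38 CPM, the stromal and endothelial sum 3.52 to 5.68 CPM and the neural sum 24.7 to 40.6 CPM. The part of these lists in the result was not tested.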

How the data were processed

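The members and gene lists were chosen with earlier results of these data known. The authors deposited raw counts per gene, 1 table per experiment; STAR, DESeq2, bcl2fastq 2.17.1.14 and mm10 are named per the submitters' processing notes, while roles, counter and annotation are not given in the sources used here. Per the labels' protocols, polyadenylated RNA went into TruSeq RNA kit v2 libraries, a kit that does not keep strand. The experiment 1 table has no value under 1, and taking 1 off every count changed no call of a member. Symbols, positions and exon lengths came from GENCODE M21 (mm10), promoters from RefSeq.

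Each experiment was fitted alone with edgeR 4.0.16 (R 4.3.3): filterByExpr, TMM scaling, quasi-likelihood tests on group means (6 and 12 libraries), two-sided, with Benjamini-Hochberg adjustment over 13811 and 15051 genes. Common biological coefficients of variation came to 0.194 (experiment 1) and 0.242 (experiment 2). CPM values use the TMM sizes. Reads carry no molecular identifiers, so counting intervals (exact, 95%) cover counting error only, and p-values rest on the spread between libraries. Whether replicates came from separate animals is not stated, so this spread may be technical. The test code was checked on simulated data.

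Same-numbered libraries were compared by the correlation of their deviations from group means. These were 0.829, 0.724 and 0.313 in experiment 1 and 0.334, 0.267 and 0.102 for doxycycline in DMSO. All of these were above the limit of 0.1 used for pairing. However, the third doxycycline plus DMSO library correlated more with the second DMSO library (0.214), so the numbers do not clearly pair it. Each other comparison had a pair under 0.1, though entinostat without doxycycline came close, at 0.336, 0.315 and 0.0964. Pairing comes from these correlations, not from the labels. Genes named were members called in a doxycycline comparison, up to 12 per direction in the others, those of at least 5 CPM and adjacent family members; Tbx21, Foxd2 and Nkx1-2 were added after their values were seen. Alternatives were RLE or library-size scaling, other filters, DESeq2 1.42.0, limma-voom 3.58.1, a 2-fold limit, a replicate block, the 2 groups alone and each library left out; leaving out both first libraries was one of them. Some results are not reported here.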

Additional observations from a re-analysis of the deposited data

How the results depend on the processing

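No called member reversed direction under an alternative run. With a replicate block, calls in experiment 1 went from 2 to 7 higher, while those of either direction went from 1881 to 7027 over all genes; in entinostat, doxycycline calls went from 1 to 2 higher, and the block changed no other count by over 1.5 times. Within entinostat the same-numbered libraries correlated at 0.0645 to 0.0792, each best with its own number, though the numbers share no stated source. DESeq2 called 5 higher in experiment 1, 2 higher for doxycycline in entinostat and 1 lower in the interaction; limma-voom called 2 higher for doxycycline in entinostat. Over all genes and in either direction, DESeq2 called 19.4%, 31.3% and 1.68% in these comparisons, and limma-voom 26.4%. A 2-fold limit left 1 higher and 1 lower in experiment 1, 1 lower in DMSO, 0 higher for doxycycline in entinostat, and 2 lower in each entinostat comparison. The share of all tested genes left by this limit is not given here, so these counts cannot be set against it. A 1 CPM filter, which tests fewer genes, left 1 lower in experiment 1, 1 lower in DMSO, 2 higher and 0 lower for doxycycline in entinostat, and 7 higher in each entinostat comparison. Of all genes tested under it, 15.4%, 11.7% and 25.5% were called in these doxycycline comparisons. For entinostat without and with doxycycline they were 45% and 64.1%. Without a filter, doxycycline called 1 lower in DMSO and 0 higher in entinostat, where 5.1% and 17.9% of all genes were called in either direction. Library size alone left 2 lower for entinostat without doxycycline, and the 2 groups alone gave 0 higher for doxycycline in entinostat. These fits called 44.2% and 18.3% of all tested genes. Without the first libraries of doxycycline plus DMSO and of entinostat, doxycycline in entinostat gave 2 higher and 8 lower, and the interaction 2 higher and 8 lower, where 61.8% and 51.5% of all tested genes were called. Leaving out 1 library gave 1 to 2 higher and 0 to 2 lower in experiment 1, 2 to 4 and 1 to 2 in DMSO, 0 to 2 and 1 to 6 for doxycycline in entinostat, 12 to 14 and 3 to 4 for entinostat without doxycycline, 12 to 15 and 5 with it, and 0 to 1 and 0 to 5 in the interaction. The calls over all genes moved too. They were 4.83% to 10.8% in experiment 1, 5.52% to 11.2% in DMSO and 6.42% to 48.9% for doxycycline in entinostat. For entinostat they were 38.5% to 52.5% without doxycycline and 53.3% to 70.1% with it, and in the interaction 0.0583% to 19.7%. The cause of these changes was not tested where no fewer genes or libraries show it. Of the listed members, 22 of 38 in experiment 1 and 20 of 43 in experiment 2 were not tested, and 21 and 18 of these had under 10 counts in every library.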

Other observations

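Developmental factors outside these families were followed with a list of 91 genes, of which 24 were listed and 11 tested in experiment 2. Doxycycline called 0 of 6 tested in experiment 1 and 0 of 11 in DMSO in edgeR, with 3 at an unadjusted p under 0.05 in each. Over all tested genes, 13.6% and 9.31% were called in either direction in these comparisons. Entinostat raised 7 of 11 and lowered 2 both without and with doxycycline. Of all tested genes, 30.3% rose and 16.9% fell without doxycycline, and 33.9% and 29.9% with it. Among those raised, Evx2, Prrx1, Tbr1 and Foxa1 had at most 7 counts over the libraries of either DMSO group. Vax2, also raised, had 13 counts over DMSO and 1 over doxycycline plus DMSO, against 85 over entinostat. These genes, Vax2 included, passed the filter through entinostat, so their rise was built into it. Shox2, a limb and heart pacemaker factor, rose by 2.25 ± 0.35 on the log2 scale without doxycycline (adjusted p = 0.00022) and by 1.83 ± 0.36 with it (adjusted p = 0.000739). Gbx1, a hindbrain and spinal cord factor, rose by 2.73 ± 0.43 and 2.86 ± 0.47. Zic2 and Zic5, which pattern the neural tube, fell. Zic5 went from 15.4 ± 0.597 CPM (SD, n = 3) in DMSO to 6.79 ± 0.658 CPM in entinostat, and Zic2 from 12.2 to 5.89 CPM, with log2 differences of -1.18 ± 0.16 and -1.05 ± 0.23 (adjusted p = 6.3e-05 and 0.00257). Within entinostat, doxycycline lowered Shox2 by 1.16 ± 0.34 (adjusted p = 0.0291) and Prrx1 by 1.75 ± 0.49 (adjusted p = 0.0293), and raised Zic5 by 0.47 ± 0.15 (adjusted p = 0.045). There, 8.96% of all tested genes were called higher and 15.1% lower. Prrx1 had 56 counts over entinostat and 14 over doxycycline plus entinostat. It passed the filter through the former, so its fall was built in as well.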
